A study of Homo sapiens with 18 samples.

Results

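The 4 genes described here, GAD1, GAD2, ABAT and ALDH5A1, encode the enzymes that make and break down γ-aminobutyric acid (GABA). They were examined by ChIP-seq of H3K27ac and CTCF in HEK293T, an immortalized human cell line derived from embryonic kidney. A gene's window was its body in GENCODE release 44 (hg38) plus 10 kb on either side, and a peak belonged to the gene if it shared at least 1 bp with that window. The 4 genes were taken from 19111 protein-coding autosomal genes, and their windows held 89 of the 506359 peaks in the 12 ChIP lists, 26 of them H3K27ac and 63 CTCF. The members are enzymes only. None of them is a transporter, so the transporters of GABA are given with the other pathway genes.

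For each antibody there were 3 libraries of untreated cells (CTRL) and 3 of cells kept in 1 mM valproic acid (VPA) for 1 day. Both groups were the same line, and the sample titles name no genotype beyond it. No source says whether the replicates were separate cultures, so p-values measure only the spread between these libraries. Sequencing depth is unknown, and an absent peak means only that nothing passed the authors' q-value of 0.05 at that place.

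GABA is the main inhibitory transmitter of the brain. The glutamate decarboxylases GAD1 and GAD2 make it from glutamate, and GABA transaminase (ABAT) and succinic semialdehyde dehydrogenase (ALDH5A1) return its carbon to the tricarboxylic acid cycle as succinate. This side route is the GABA shunt, and outside neurons its catabolic enzymes are found in kidney and liver. VPA inhibits histone deacetylases and is an antiepileptic that has also been studied as an inhibitor of GABA breakdown. H3K27ac is found at promoters and enhancers in use. CTCF is a zinc-finger protein that binds DNA and anchors chromatin loops.

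Promoter sequences show what lies under the peaks at the gene starts. Each of the sequences below, from RefSeq (GRCh38.p14), runs 5′ to 3′ on the + strand from 250 bases before a transcription start to 30 bases from it on, and capitals mark the GC box GGGCGG or its reverse complement CCGCCC, with overlaps allowed. The GC box was present in 44.1% of 35116 RefSeq promoters of the same length. These are the starts of GAD1 (chr2:170816637-170816916), ALDH5A1 (chr6:24494719-24494998), GAD2 (chr10:26216524-26216803), ABAT upstream (chr16:8674367-8674646) and ABAT internal (chr16:8712699-8712978). The internal start of ABAT is shown because a CTCF region found in VPA libraries began within the printed stretch. All 4 genes matched RefSeq entries, with 8 starts in all.
GAD1: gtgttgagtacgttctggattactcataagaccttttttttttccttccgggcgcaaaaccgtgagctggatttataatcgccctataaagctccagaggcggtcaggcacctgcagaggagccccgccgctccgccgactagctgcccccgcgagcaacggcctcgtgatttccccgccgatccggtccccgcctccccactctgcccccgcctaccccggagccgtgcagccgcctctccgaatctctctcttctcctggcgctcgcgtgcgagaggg
ALDH5A1: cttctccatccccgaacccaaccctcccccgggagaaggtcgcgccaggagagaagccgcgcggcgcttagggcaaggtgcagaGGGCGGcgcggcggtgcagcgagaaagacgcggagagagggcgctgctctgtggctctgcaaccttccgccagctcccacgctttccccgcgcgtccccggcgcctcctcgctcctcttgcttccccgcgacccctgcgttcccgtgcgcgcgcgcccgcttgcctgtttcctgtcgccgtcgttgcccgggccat
GAD2: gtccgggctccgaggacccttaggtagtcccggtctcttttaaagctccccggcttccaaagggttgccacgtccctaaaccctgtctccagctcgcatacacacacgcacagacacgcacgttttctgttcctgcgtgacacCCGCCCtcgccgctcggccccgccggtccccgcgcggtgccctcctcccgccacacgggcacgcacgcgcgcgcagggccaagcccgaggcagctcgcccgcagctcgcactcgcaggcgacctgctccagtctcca
ABAT upstream: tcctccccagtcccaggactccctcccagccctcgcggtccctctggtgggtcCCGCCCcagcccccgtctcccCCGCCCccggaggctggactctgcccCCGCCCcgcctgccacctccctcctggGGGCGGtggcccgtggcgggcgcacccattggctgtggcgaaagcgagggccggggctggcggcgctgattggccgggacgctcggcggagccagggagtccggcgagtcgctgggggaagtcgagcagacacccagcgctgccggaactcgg
ABAT internal: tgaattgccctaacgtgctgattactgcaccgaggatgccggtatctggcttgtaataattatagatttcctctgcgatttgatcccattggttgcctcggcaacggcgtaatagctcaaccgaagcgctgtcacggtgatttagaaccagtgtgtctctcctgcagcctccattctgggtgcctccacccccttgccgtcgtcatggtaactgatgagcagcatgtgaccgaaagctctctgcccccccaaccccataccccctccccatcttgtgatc
The upstream promoter of ABAT held 4 GC boxes, those of ALDH5A1 and GAD2 held 1 each, and those of GAD1 and the internal ABAT start held none. CpG dinucleotides numbered 27 in GAD1, 37 in ALDH5A1, 32 in GAD2 and 28 in ABAT upstream, but 13 in ABAT internal, and the median RefSeq promoter of this length held 13. A CpG-rich sequence was therefore shared by the promoter of GAD2, which had no H3K27ac peak in any library, and by the 3 promoters that had one in all 6.

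CTCF sites were searched with the 12-letter core consensus of the CTCF motif, allowing 1 mismatch, on both strands within 100 bp of the median summit. The core was found in 4 of the 14 CTCF regions of these genes, in 36.2% of all 69985 CTCF regions and in 1.55% of windows 2 kb away from them. All 4 matches lay on the − strand, while the 4 genes are transcribed from the + strand. Their sequences are printed 5′ to 3′ on the − strand with the core in capitals, for GAD1 at the gene start (chr2:170812919-170812948), GAD1 at the promoter (chr2:170815894-170815923), ABAT downstream (chr16:8792067-8792096) and ALDH5A1 intronic (chr6:24521130-24521159, which carries the 1 mismatch).
GAD1 at the gene start: acagaatgaCCACCAGGTGGCaatagatta
GAD1 at the promoter: gagaaattcCCACCAGAGGGCgccaagagc
ABAT downstream: catgcagtaCCAGCAGAGGGCacacagagc
ALDH5A1 intronic: ggcctgtgcCCTGTAGAGGGCacctctgag
A match is a description of the letters and does not show which factor was bound.

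The lists differed in length and in local background. The length of an H3K27ac list was 26299 to 29799 peaks in CTRL and 38441 to 40992 in VPA, and CTCF lists held 39818 to 58782 and 36469 to 55325. Genome-wide background coverage, recovered from the peak statistics, lay between 3.51 and 3.95 fragments in all 12. Local background sat at that floor for 21.3% to 32.1% of the replicate 1 peaks and for 3.49% to 13.6% of those of replicates 2 and 3. Promoters of HEK293T markers (VIM, PAX2, LIN28B, NEFL and NEFM) had an H3K27ac peak within 1 kb in all 6 libraries, and the blood markers PTPRC and CD3E, the liver marker ALB and the muscle marker MYOG had none. The liver marker APOA1 had one in VPA 3 and the muscle marker MYOD1 in VPA 2 and VPA 3, and neither had one in CTRL. The part of such promoters in the results was not tested.

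The first question was whether VPA changed H3K27ac at the genes. The number of peaks at ABAT, and the covered length at ABAT and ALDH5A1, did not overlap between treatments and were the larger in VPA. GAD1 had 1 promoter peak in every library and GAD2 had none in CTRL. With 3 libraries against 3, none of these differences could pass a p of 0.05. ABAT had 1 H3K27ac peak in each CTRL library and 3, 2 and 3 in VPA replicates 1, 2 and 3. The groups did not overlap, with a mean of 1.0 ± 0.0 in CTRL and 2.67 ± 0.577 in VPA (SD, n = 3; exact permutation test, two-sided p = 0.1, the smallest that 3 against 3 allows). Adjusted over all 16041 genes with a peak, p was 0.8114. Among those genes, 12.2% had a higher number in every VPA library than in any CTRL library and 0.175% a lower one, beside 1 of 4 and 0 of 4 among the members. The H3K27ac lists of VPA were longer. With every list limited to the length of the shortest by q-value, the ABAT means were 1.0 and 1.33 and the groups overlapped (exact permutation p = 1.0). They also overlapped in a window of the gene body plus 50 kb, with means of 2.67 and 4.33 (exact permutation p = 0.3).

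Peaks at ABAT covered 805, 973 and 1009 bp of the window in CTRL and 3166, 2197 and 2582 bp in VPA. All VPA libraries lay above all CTRL libraries, with means of 929 ± 109 and 2648 ± 488 bp (SD, n = 3, exact permutation p = 0.1). With lists of equal length the difference was 757 bp in place of 1719 bp and the groups still did not overlap (exact permutation p = 0.1). With the full lists, the covered length was larger in every VPA library at 31.6% of genes and smaller at 0.187%. The share of genes at equal list lengths was not determined, so the separation there has no background to be read against.

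Part of the added length at ABAT was a wider promoter peak. This region (chr16:8673878-8675973) contained the upstream start, and the peak was 805, 973 and 1009 bp wide in CTRL and 1967, 1183 and 1210 bp wide in VPA. The rest came from introns. A region in intron 2 of the canonical transcript (chr16:8736188-8737202), 62.3 kb from the gene start, was found in 3 of 3 VPA and 0 of 3 CTRL libraries. Its fold enrichment, the summit over its local background, was 3.95, 2.67 and 3.38 in VPA replicates 1, 2 and 3. Its place in each list, as its percentile by q-value, was 42.9%, 20.3% and 35.3%. It was thus below the middle of each list, and with lists of equal length it was no longer in all 3 VPA libraries. Such regions made up 4.12% of the 55382 H3K27ac regions, and those only in CTRL 0.139%. A second intronic region (chr16:8676547-8677207), 2.32 kb from the start, had fold enrichments of 3.9 in VPA 1 and 2.76 in VPA 3 and no peak elsewhere.

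ALDH5A1, which oxidizes the product of ABAT, had 1 H3K27ac peak in each CTRL library and 2, 1 and 2 in VPA. VPA replicate 2 overlapped with CTRL, and the difference of 0.667 peaks had an exact permutation p of 0.4. Covered length was 1096, 1219 and 1277 bp in CTRL and 1601, 1377 and 1725 bp in VPA. The groups did not overlap, with means of 1197 ± 92.4 and 1568 ± 176 bp (SD, n = 3; exact permutation p = 0.1). With equal list lengths they overlapped, and the difference was 53.3 bp (exact permutation p = 0.5). ABAT and ALDH5A1 were the 2 of 4 members with a larger covered length in every VPA library, to be read against the 31.6% of all genes.

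The constant H3K27ac peak of ALDH5A1 (chr6:24494599-24496004) covered its start and first coding exon. The additional peak of VPA replicates 1 and 3 (chr6:24520902-24521437) lay in intron 6, with fold enrichments of 4.28 and 3.26. It was inside a CTCF region that every library had, the one whose core match is printed above as ALDH5A1 intronic.

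GAD1, the decarboxylase that also works outside synapses, had 1 H3K27ac peak in each of the 6 libraries (chr2:170815657-170818423). The peak was 1970, 2422 and 2323 bp wide in CTRL and 1988, 2767 and 2667 bp in VPA, so the groups overlapped (exact permutation p = 0.4). The VPA peak was the wider at each replicate number, and with the replicate block the exact permutation p was 0.25, the smallest that 3 pairs allow. Its median summit was 217 bp inside the canonical start, and 3.89 kb from the earliest start in the annotation. GAD2, the decarboxylase tied to synaptic vesicles, had no H3K27ac peak at either RefSeq start in any library. A single peak 335 bp wide in an intron, with a fold enrichment of 3.63, was present in VPA replicate 1 alone.

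**Figure D1:**
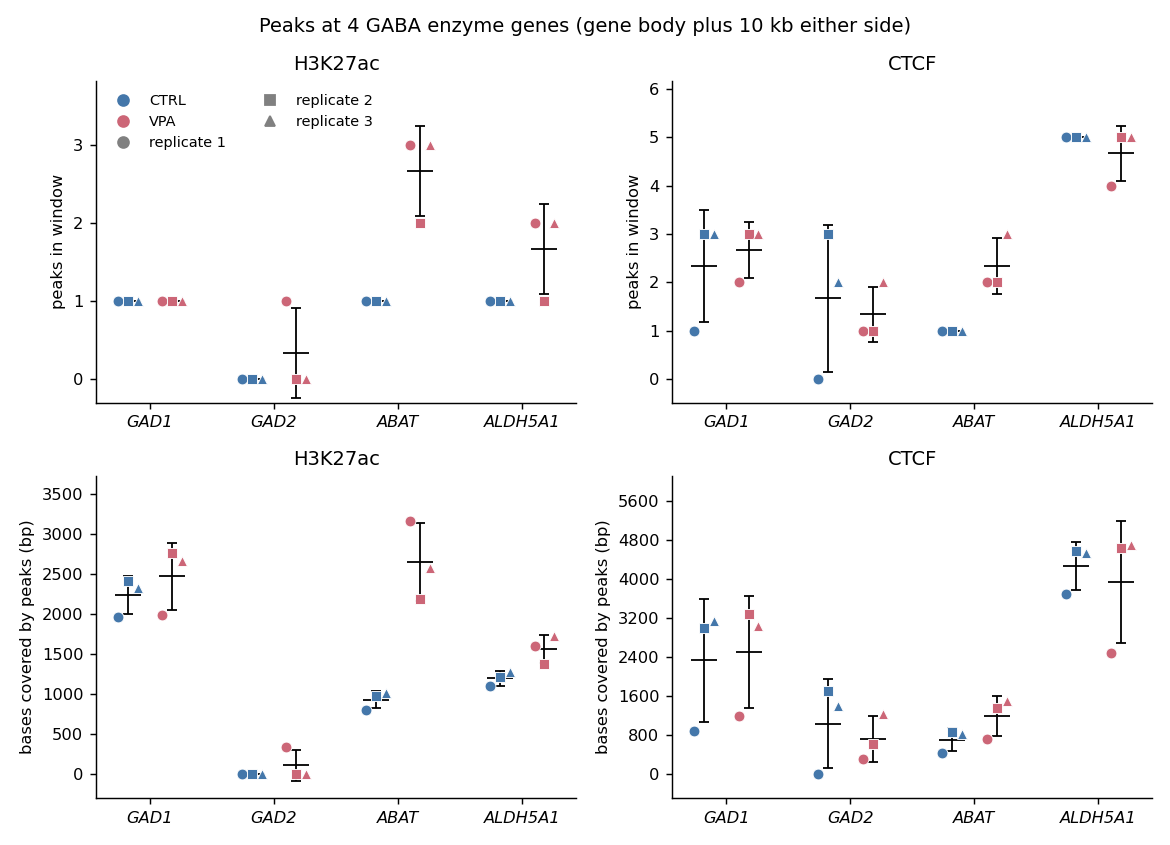
Number of peaks (top) and bases covered (bottom, bp) in the window of each gene for H3K27ac (left) and CTCF (right); symbols are libraries (blue CTRL, red VPA, shape gives the replicate), bars the mean and whiskers the SD (n = 3). H3K27ac peak numbers of ABAT do not overlap between treatments, with 1 peak in each CTRL library against 2 or 3 in VPA. The peak numbers of GAD1 coincide.

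**Figure D2:**
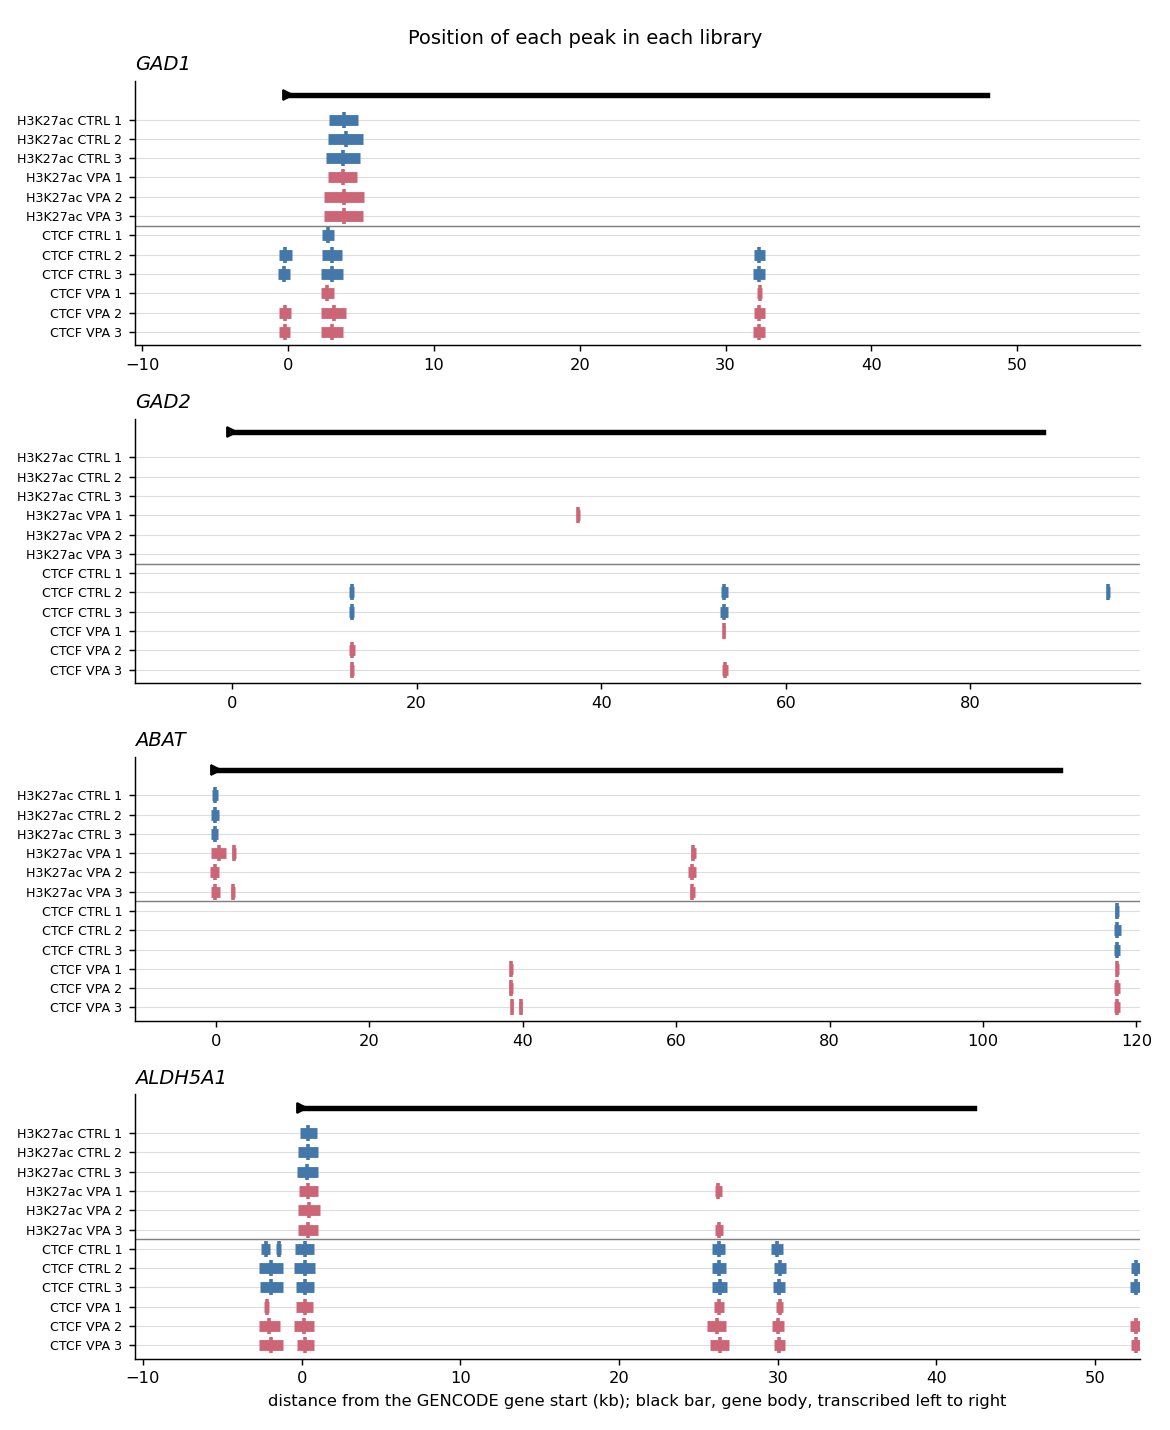
Peaks of each library (rows) along each gene by distance from its start (kb); blue is CTRL, red is VPA, and the black bar is the gene body. ABAT shows the H3K27ac region 62.3 kb and the CTCF region 38.6 kb from its start in VPA rows only, and GAD2 lacks H3K27ac at its start in every row.

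The second question concerned CTCF. ABAT again had more peaks in VPA, and the other 3 genes did not differ beyond the spread of the libraries. ABAT had 1 CTCF peak in each CTRL library and 2, 2 and 3 in VPA. The groups did not overlap, with means of 1.0 ± 0.0 and 2.33 ± 0.577 (SD, n = 3; exact permutation p = 0.1). Adjusted over 16926 genes, p was 1.0. A higher CTCF number in every VPA library was found at 0.396% of genes and a lower one at 0.874%, beside 1 of 4 and 0 of 4 among the members, and a single gene cannot be read as a rate. With equal list lengths the means were 1.0 and 1.33 and the groups overlapped, as they did with 50 kb on either side (means of 5.67 and 6.67, exact permutation p = 0.5).

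The CTCF region that only VPA libraries had (chr16:8712866-8713359) lay in intron 1 of ABAT, its summit 172 bp from an annotated start of the gene. Its peak shared bases with the internal promoter printed above in 1 of the 3 VPA libraries. For internal promoters not printed, this was so in 2 of the 3 at chr16:8713330-8713609 and in 1 at chr16:8712587-8712866. The fold enrichment of the region was 4.05, 4.71 and 3.36 in VPA replicates 1, 2 and 3, and its percentile by q-value in those lists was 22.9%, 18.5% and 6.61%. All 3 were low in their lists, and with lists of equal length the peak was no longer in all 3 VPA libraries. CTRL had no peak there in any list. Regions only in VPA made up 0.186% of all CTCF regions and those only in CTRL 0.326%. No core match was found within 100 bp of its summit, and no H3K27ac peak shared bases with it. The region nearby at 39.8 kb (chr16:8714167-8714536), its summit 760 bp from an annotated start, was in VPA replicate 3 alone. Its fold enrichment there was 4.62.

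The lasting CTCF region of the ABAT window (chr16:8791639-8792515) lay 117 kb from the gene start, past its end and 3271 bp from a start of PMM2, a phosphomannomutase gene. Its fold enrichment was 7.09, 34.9 and 33.1 in CTRL and 8.33, 44.2 and 36.1 in VPA. Replicate 1 was low in both treatments, and within each replicate number the VPA fold enrichment was the higher. The number of fragments over the summit, divided by the library's background coverage, did not show this. It was 8.75, 99.7 and 100 in CTRL and 10.3, 94.4 and 90.8 in VPA, lower in VPA at replicates 2 and 3. Covered length over the ABAT window was 430, 871 and 819 bp in CTRL and 728, 1351 and 1492 bp in VPA, and VPA 1 overlapped with CTRL (exact permutation p = 0.3). A larger CTCF length in every VPA library was found at 1.26% of genes and a smaller one at 1.86%, and none of the 4 members met either.

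ALDH5A1 had the most CTCF of the 4, with 5 peaks in every CTRL library and 4, 5 and 5 in VPA (exact permutation p = 1.0). Regions at -2.17 kb from the gene start (chr6:24492157-24493716), at the promoter (chr6:24494385-24495727), and 26.3 kb (chr6:24520422-24521825) and 30.1 kb (chr6:24524420-24525402) inside had a peak in all 6 libraries. The promoter region overlapped the H3K27ac region there. A further region 52.6 kb from the start, at the edge of the window towards KIAA0319, lacked a peak in VPA 1. In CTRL 1 the peak of this region began just beyond the window and was not counted. The count of 5 in CTRL 1 included a second peak in the region before the start, from -1.601 to -1.281 kb.

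At GAD1, CTRL replicates 1, 2 and 3 had 1, 3 and 3 CTCF peaks, and the VPA replicates 2, 3 and 3 (exact permutation p = 1.0). One region (chr2:170815476-170817203) was present in all 6, its summit at -976 bp from the canonical start, and it overlapped the H3K27ac region. Those at the gene start (chr2:170812551-170813466) and in coding exon 8 were missing from CTRL 1, and the first of them from VPA 1 too. At the gene start, the fold enrichment was 21.0 and 23.2 in CTRL replicates 2 and 3 and 12.5 and 24.1 in the same VPA replicates, and these overlapped. At GAD2, CTRL had 0, 3 and 2 peaks while VPA had 1, 1 and 2 (exact permutation p = 1.0), none at its promoter and none shared by all 6 libraries.

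Heights were compared where all 6 libraries of an antibody had a peak, at 3 regions for H3K27ac and 6 for CTCF in these windows. H3K27ac fold enrichment at the ABAT promoter was 2.72, 5.49 and 4.47 in CTRL and 2.51, 6.36 and 8.66 in VPA. Replicate 1 was the lowest of both groups, and replicates 2 and 3 were higher in VPA. At the ALDH5A1 promoter it was 5.49, 14.8 and 17.7 in CTRL and 3.61, 14.9 and 11.3 in VPA. At the GAD1 promoter it was 5.19, 16.8 and 17.0 in CTRL and 3.62, 14.9 and 14.5 in VPA. For GAD1 the VPA library was lower at every replicate number, but the groups overlapped because replicate 1 was far below the others in both. The log2 differences were 0.35 (SE 0.468) for ABAT, -0.41 (SE 0.665) for ALDH5A1 and -0.31 (SE 0.683) for GAD1, and limma called none of them (adjusted p = 1 for each). It called 0 of 18407 H3K27ac regions (0%), with 301 at an unadjusted p under 0.05, and the median log2 difference over all of them was -0.14.

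With the replicate number as a block, limma called 3040 of the H3K27ac regions (16.5%), and still none of the 3 promoters, whose adjusted p were 0.357 for ABAT, 0.21 for ALDH5A1 and 0.338 for GAD1. Replicates 2 and 3 alone gave 1836 calls. Summit pileup, the number of fragments over the summit, avoids the local background. Divided by each library's background coverage, it was 22.3, 15.6 and 16.8 in CTRL and 24.2, 22.5 and 22.4 in VPA at the ABAT promoter. The VPA values were the higher, and the groups did not overlap, but only by 22.4 in VPA 3 against 22.3 in CTRL 1. By fold enrichment they overlapped. The share of all regions that separate by pileup was not determined. The same ratio was 100, 67.5 and 63.0 in CTRL and 68.5, 45.8 and 47.0 in VPA at the ALDH5A1 promoter. At the GAD1 promoter it was 66.4, 44 and 47.1 against 48.7, 34.7 and 38.5. Both were lower in VPA at every replicate number, although VPA 1 lay above CTRL replicates 2 and 3.

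A fit of pileup with the replicate block, chosen after the data were seen, called ABAT higher (log2 difference 0.35, SE 0.147, limma adjusted p = 0.0497), ALDH5A1 lower (-0.51, SE 0.089, adjusted p = 0.00021) and GAD1 lower (-0.36, SE 0.102, adjusted p = 0.007). Without the block, the pileup fit called none of the 3 (limma adjusted p = 0.225 for ABAT, 0.133 for ALDH5A1 and 0.243 for GAD1). The fit with the block called 11.1% of all H3K27ac regions higher and 51.8% lower, and its median over all regions was -0.28. GAD1 was at the 42.7 percentile of all differences and ALDH5A1 at the 28.2 percentile, and ABAT was at the 88.4 percentile. Peak lists carry no spike-in, and a change of the whole mark cannot be told apart from a change in the share of fragments in peaks.

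**Figure D3:**
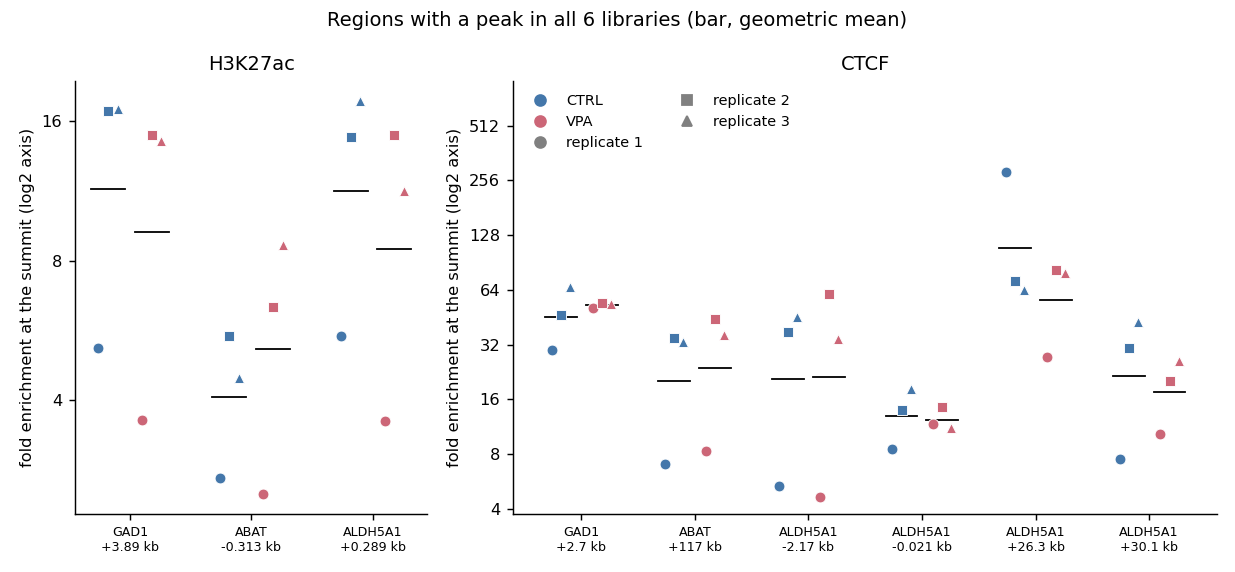
Fold enrichment at the summit (log2 axis) in each library for regions that all 6 libraries had, named by gene and distance from its start; blue is CTRL, red VPA, shapes are replicates and bars geometric means. Replicate 1 (circles) is the lowest of the 3 at each H3K27ac region, and at the ALDH5A1 region 26.3 kb inside the gene CTCF reaches 285 in CTRL 1 against 27.5 in VPA 1.

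CTCF heights were not called at any of the 6 regions, nor at any of the 27794 tested over the genome (limma, 0 calls, 0%), with 254 at an unadjusted p under 0.05. The largest difference was at the ALDH5A1 region 26.3 kb inside the gene, where fold enrichment was 285, 71.9 and 63.5 in CTRL and 27.5, 82.1 and 79.2 in VPA. The log2 difference of -0.95 (SE 0.671, limma adjusted p = 1) rested on replicate 1, and replicates 2 and 3 alone gave 0.26 (adjusted p = 0.894). At the GAD1 promoter region fold enrichment was 30.0, 46.8 and 66.7 in CTRL and 50.9, 54.4 and 53.7 in VPA. It overlapped between treatments, with a log2 difference of 0.22 (SE 0.545). At the ALDH5A1 promoter it was 8.54, 13.9 and 18.2 in CTRL and 11.7, 14.6 and 11.1 in VPA, and these also overlapped. At -2.17 kb from the ALDH5A1 start it was 5.33, 37.4 and 45.3 in CTRL and 4.62, 61.0 and 34.3 in VPA. At 30.1 kb inside ALDH5A1 it was 7.52, 30.6 and 42.5 in CTRL and 10.3, 20.2 and 26.0 in VPA. Replicate 1 was the lowest of each group at both, and the treatments overlapped. These regions had log2 differences of 0.03 and -0.29, and the ABAT region had 0.23, against a median of -0.02 over all CTCF regions.

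**Figure D4:**
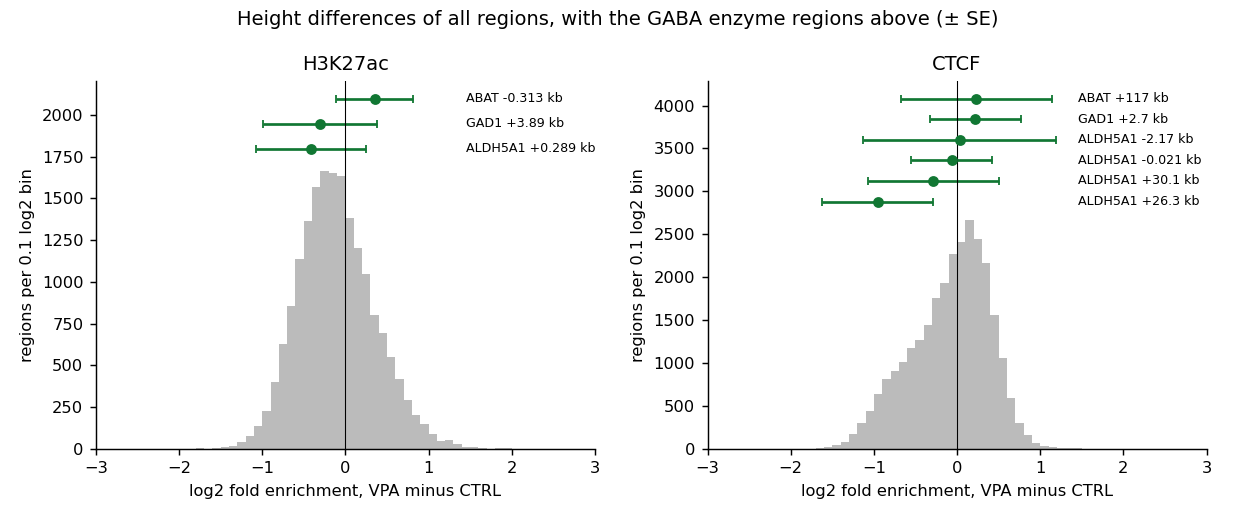
Number of regions per bin of the log2 difference in fold enrichment (VPA minus CTRL) for all regions in 6 libraries (grey), with the GABA enzyme regions as green points above (± SE, named by gene and distance from its start). H3K27ac at ABAT, at 0.35, lies to the right of the median of -0.14, and ALDH5A1 CTCF at -0.95 lies in the left tail.

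The other genes of the pathway showed few differences in H3K27ac peak number. Of 20 genes described, 19 had an H3K27ac peak in some library, 1 had a higher number in every VPA library and 1 a lower one. For CTCF 18 had a peak and none was higher or lower throughout. Of 5 GABA transporters, SLC6A11 had 1 H3K27ac peak in every library, SLC6A13 had none, and SLC32A1 (the vesicular transporter) had 1 in every library except CTRL 1. SLC6A12 had 2 peaks in every library except both replicates 1, which had none, and SLC6A6, a taurine transporter that also carries GABA, went from 2, 3 and 2 in CTRL to 3, 4 and 3 in VPA (exact permutation p = 0.3). None of these transporters therefore separated the treatments, and the genes of glutamate supply, which included GLUL, did not either.

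The gene that was higher was OGDH, a subunit of the dehydrogenase that the GABA shunt bypasses, where CTRL had 3, 1 and 2 H3K27ac peaks and VPA had 6, 5 and 8. The one that was lower was SUCLA2, a subunit of succinyl-CoA synthetase in the same stretch of the cycle, where CTRL had 4, 5 and 4 while each VPA library had 3. Both had an exact permutation p of 0.1 and an adjusted p over all genes of 0.8114. Both genes lie beside a background of 12.2% higher and 0.175% lower over all genes.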

How the data were processed

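Peak lists of 12 ChIP libraries were analysed, and the input libraries were not used here. The authors aligned paired-end reads to hg38 with Bowtie2 and called peaks per library, with replicates kept apart, with MACS3 (3.0.0a7 per the labels) at a q-value of 0.05. Use of the inputs as control is not given in the sources used here. Each deposited list gives a score, a fold enrichment (a ratio), a −log10 p-value and a −log10 q-value per peak, and a summit offset, as the authors' caller wrote them. The score was not used. The summit pileup was recovered from the deposited fold enrichment and −log10 p-value (whole within 0.05 in 100% of peaks).

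Peaks of an antibody sharing at least 1 bp were merged into regions. Peak number and covered length were compared with a two-sided exact permutation test. For peak number, p was adjusted with Benjamini-Hochberg over all genes with a peak. The p-values of covered length are unadjusted. The log2 fold enrichment was fitted with limma 3.58.1 (R 4.3.3, eBayes with trend), adjusted over all regions. Other steps used Python 3.11.15, numpy 2.4.6, pandas 2.3.3, scipy 1.17.1, matplotlib 3.10.9 and samtools 1.23.1. The limma step was tested on simulated data. Same-numbered H3K27ac libraries deviated together (Pearson's r of 0.865, 0.585 and 0.591 over 18407 regions), so their numbers were taken to pair the samples. CTRL 2 with VPA 3 (0.607) and CTRL 3 with VPA 2 (0.554) came as close, so the data set replicate 1 apart but do not tell pairs 2 and 3 from each other.

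The members and lists were chosen with earlier results of these data known. By rule, every member is named, with its peak number in each library. Fold enrichments of some CTCF regions, and CTCF covered lengths per library except at ABAT, are not given. Regions at a member's start, in all 6 libraries, or only in VPA or only in CTRL are described in full. Of the pathway list, the transporters and the genes that do not overlap are named. OGDH and SUCLA2 fall under the latter. A few genes of the lists are not reported here. Alternatives were a stricter q-value, equal list lengths, other windows, summit overlap, merging within 500 bp, other scalings and filters of height, the replicate block and leaving out each library.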

Additional observations from a re-analysis of the deposited data

How the results depend on the processing

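Depth sets a limit, since reads per library are unknown. Peaks of these genes found in only 1 or 2 libraries lay low in their lists by q-value. A missing peak did not always mark a weak region. The CTCF region 53.3 kb from the GAD2 start had none in CTRL 1 and VPA 2. Its fold enrichment was 34.3 in CTRL 2, 26.9 in CTRL 3, 5.98 in VPA 1 and 26.6 in VPA 3. With equal list lengths, the regions only in VPA at ABAT fell from 1 to 0 for H3K27ac and from 1 to 0 for CTCF, because that limit removed weak VPA peaks, and the ABAT peak numbers overlapped. They also overlapped with 50 kb on either side. In that window the H3K27ac numbers at GAD2 (means of 0 in CTRL and 1.33 in VPA) did not overlap. Nor did the CTCF numbers at ALDH5A1 (8.33 and 6.67). Both had an exact permutation p of 0.1, the smallest that 3 against 3 allows. The share of all genes that do not overlap in that window was not determined. H3K27ac height calls went from 0 to 3040 with the replicate block, 2831 with recovered pileup, 11583 with recovered pileup and the block, and 1836 with replicates 2 and 3 alone. For CTCF, same-numbered libraries had r of 0.34, -0.0451 and 0.477 by fold enrichment but 0.79, 0.543 and 0.852 by pileup, so pairing is unsettled, and the block left 0 calls and 598 at an unadjusted p under 0.05. The block gave an exact permutation p of 0.25, the smallest it allows, for peak number and covered length of both antibodies at ABAT and for H3K27ac covered length at ALDH5A1 and GAD1. The block on fold enrichment changed no call at these genes.

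Leaving out each library in turn, the number of H3K27ac regions only in VPA ranged from 1 to 2 at ABAT and from 0 to 1 at ALDH5A1, with the highest value without VPA replicate 2 in both. The CTCF peak number difference (VPA minus CTRL) ranged from -0.333 (without CTRL replicate 1) to 0.667 at GAD1 and from -1.17 to 0.333 (without CTRL replicate 2) at GAD2. The CTCF covered length difference ranged from -714 to 393 bp at ALDH5A1 (108 bp with replicates 2 and 3 alone), from -558 to 827 bp at GAD1 and from -832 to 22.5 bp at GAD2. None of these was called before or after.

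The log2 height difference without each library ranged from -0.022 to 0.87 at the ABAT H3K27ac promoter region, from -0.93 to 0.20 at that of ALDH5A1 and from -0.87 to 0.37 at that of GAD1. For CTCF it ranged from -0.52 to 0.99 at ABAT, from -0.076 to 0.50 at GAD1 (-0.047 with replicates 2 and 3 alone), and at ALDH5A1 from -0.95 to 1.14 before the start, from -0.36 to 0.18 at the promoter (0.053 with libraries centred on their median) and from -1.04 to 0.21 at 30.1 kb. At 26.3 kb it was 0.26 with replicates 2 and 3 alone. Centring moved the median of all CTCF differences from -0.02 to 0.10. The cause of these reversals was not tested. Of 494 alternative values, 25 reversed, 8 counts moved, 3 newly passed the threshold and 458 did none of these. The 458 do not measure stability. A loss of separation between treatments was not recorded, and a difference of 0 cannot reverse. The ABAT peak numbers with equal list lengths (difference 0.333 for each antibody, groups overlapping) are thus among the 458. No member height passed the threshold in the main fit, so none could fall below it.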

Other observations

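Transcription factor genes of GABAergic neurons carried H3K27ac in these kidney-derived cells. A peak within 1 kb of a start was present in all 6 libraries at DLX1, DLX2, DLX5, DLX6, LHX8 and SP9, and in replicates 2 and 3 of both treatments at LHX6. Of the enzymes of those neurons, GAD1 had such a peak in all 6 libraries and GAD2 in none. Of the 5 GABA transporters, SLC6A11 and SLC6A6 had one in all 6 libraries. SLC6A12, SLC6A13 and SLC32A1 had none within 1 kb of a start in any library. The share of all promoters with such a peak was not determined, so these counts have no background to be read against. Of the neuronal genes, SYT1 had such a peak in all 6 libraries, RBFOX3 in 2 of 3 CTRL and 3 of 3 VPA libraries, and SNAP25 in 0 of 3 CTRL and 2 of 3 VPA libraries, as did the muscle gene MYOD1.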
